A study of Mus musculus with 12 samples.

Results

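Genes that mark macrophages and microglia were examined in pituitary tumors of pro-opiomelanocortin (POMC) knockout (KO) mice. The set holds 35 genes, picked by symbol as markers and effectors of these cells, of the 18193 genes that single-gene probe sets of the array name. The choice was made with earlier results of these data known. Shares over all tested genes are therefore set beside the counts as description, and the set as a whole was not tested. Each gene was represented by the probe set with the highest mean over all 12 arrays, and 32 of the 35 genes passed the filter on low signal, along with 12305 genes in all. RNA was hybridized to Mouse Genome 430 2.0 arrays from Affymetrix, and all values below are log2 signals, so that a difference of 1 is a 2-fold change.

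Of the arrays, 8 were hybridized with RNA from heterozygous POMC KO pituitary, 2 with RNA from homozygous POMC KO pituitary and 2 with RNA from normal mouse pituitary. The KO tissue was tumor that had formed spontaneously, the mutation is inherited and not restricted to a cell type, and the labels state that no treatment was given. Strain, sex and age are not given for the mice behind these arrays. Arrays agreed in pairs: within each of 5 pairs of KO arrays the correlation was 0.997 to 0.9978 and at most 4 probe sets of 45037 were more than 2-fold apart. Between the heterozygous pairs 433 to 982 probe sets were more than 2-fold apart, and the normal arrays differed in 309. Arrays of a pair were averaged into 1 sample, giving 4 heterozygous samples (array numbers 1-2, 3-4, 5-6 and 7-8), 1 homozygous sample and 2 normal samples. The pairing was read from the values and not from the labels. The series description counts a mouse for each array and the methods speak of pooled normal tissue, so that it is not settled which samples are separate animals, and the p-values below measure only the spread between these samples, which may be technical.

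The targeted gene was low in the homozygous sample and near the normal level in the heterozygous ones. Pomc had a log2 signal of 15.28, 15.3, 15.27 and 15.15 in the heterozygous samples, 7.18 in the homozygous sample, and 15.08 and 15.11 in the normal samples. Xist, which is transcribed from the inactive X chromosome of female cells, stood at 10.93 and 11.25 in heterozygous samples 3-4 and 7-8, at 4.58 and 5 in heterozygous samples 1-2 and 5-6, at 11.2 in the homozygous sample, and at 5.07 and 4.57 in the normal samples. The homozygous sample thus had no normal sample of like Xist level to be set against.

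Macrophages are phagocytes that reside in most tissues, the pituitary included, and that can be renewed from blood monocytes, whereas microglia are the resident macrophages of the central nervous system, with which the posterior pituitary is continuous. They depend on the growth factor receptor encoded by Csf1r and on the transcription factor PU.1, encoded by Spi1, and they engulf particles through Fc, lectin and scavenger receptors and degrade them in lysosomes. Most of these genes are shared by macrophages and microglia, and several also by neutrophils, dendritic cells or lymphocytes, so that no single gene among them identifies one cell type. In bulk tissue, more cells of a type and more RNA per cell cannot be told apart.

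**Figure D1:**
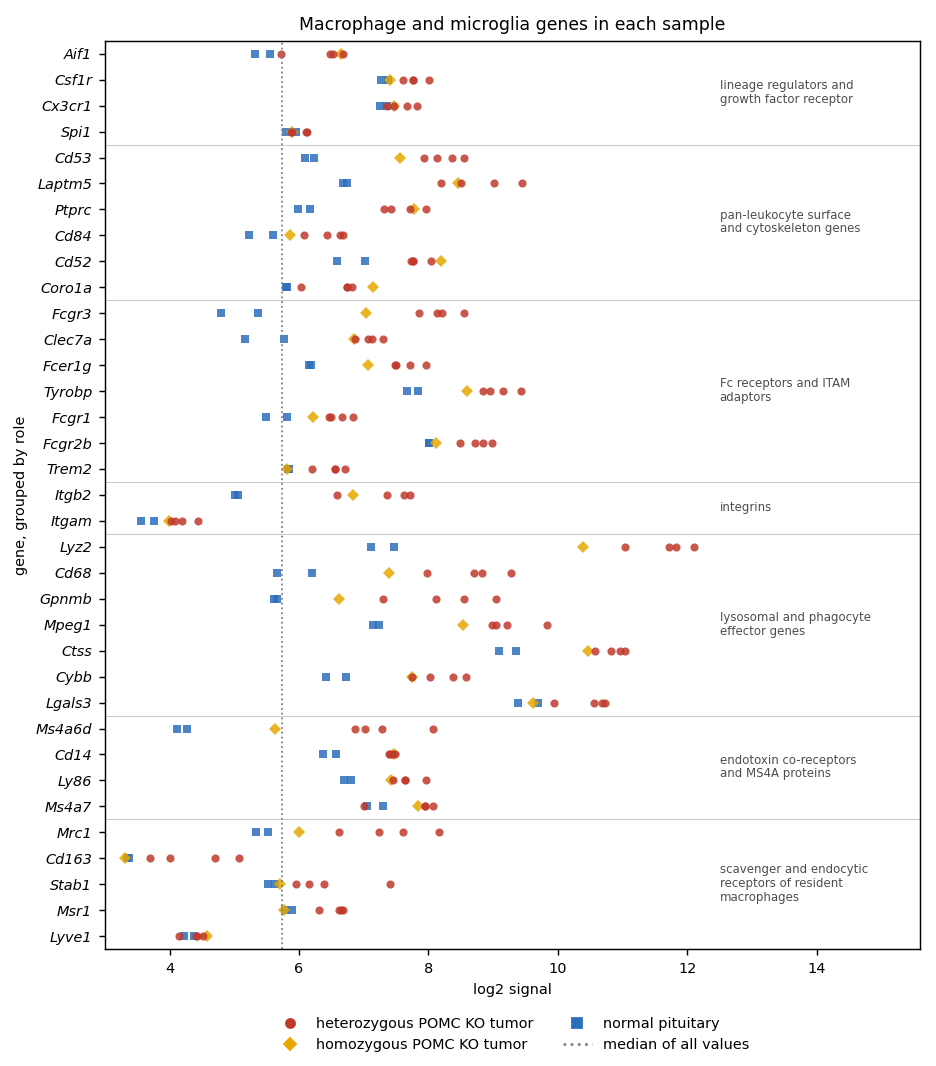
Log2 signal (x axis) of the 35 genes (rows, grouped by role) in each of the 7 samples, with red circles for the 4 heterozygous tumor samples, gold diamonds for the homozygous tumor sample and blue squares for the 2 normal samples. The dotted line is the median of all values, 5.74. Lyz2 stood above 11 in every heterozygous sample and below 7.5 in both normal samples, whereas the points of Spi1 overlap.

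In heterozygous tumors, 18 of the 32 tested genes were called higher than in normal pituitary and 0 were called lower, where a call required more than a 2-fold change and an adjusted p under 0.05 in limma (Benjamini-Hochberg over 24486 probe sets). Over all 12305 tested genes, 5.57% were called higher and 4.5% lower. With no limit on fold, 28 of the 32 genes were higher at an adjusted p under 0.05, against 12.7% of all tested genes, and the exceptions were Stab1, Ms4a7, Cx3cr1 and Spi1. All 4 heterozygous samples lay above both normal samples for 30 of the 32 genes, against 25.4% of all tested genes, and the exceptions were Spi1 and Ms4a7. At an unadjusted p under 0.05, 29 of the 32 genes passed, against 39.1% of all tested genes in either direction. The median log2 fold change of the 32 genes was 1.19, beside 0.0017 over all tested genes. The filter let in 8 of the 32 genes through tumor arrays alone, since both normal samples lay below the median signal. They were Aif1, Cd84, Fcgr3, Gpnmb, Itgb2, Mrc1, Ms4a6d and Stab1. Such genes were called more often: 6 of these 8 were called higher, as were 37.4% of the 629 genes of the array in the same position. From the further macrophage list and the growth factors described below, Mmp12, Slc11a1, Csf2rb, Adgre1, Itgax, Ncf1, Ncf4, Pld4 and Tgfb1 were let in the same way. From the lists of other white blood cells, the same held for Ltf, S100a9, Ngp, Camp, Jchain, Cd3d, Cd3e and Cd4. Among the 21 genes with both normal samples at or above the median, 10 were called higher, against 3.56% of the 11369 genes in that position.

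In the homozygous tumor sample, 7 of the 32 genes were called higher than in normal pituitary and 0 lower, against 1.43% and 1.3% of all tested genes. The 7 were Cd52, Cd53, Clec7a, Ctss, Fcgr3, Lyz2 and Ptprc. All were also called in heterozygous tumors, and 1.18% of all tested genes were called higher in both genotypes. Because both comparisons use the same normal samples, they are not independent. By the brightest probe sets, the homozygous sample lay above both normal samples for 28 genes, against 37.6% of all tested genes. It lay below both for 2, Msr1 and Trem2, against 44.5%. The dimmer tested probe sets of Msr1, given below, put the homozygous sample above both. The median log2 fold change was 0.98, beside -0.028 over all tested genes. The test for this lone sample borrows the spread of the other groups. Without either normal sample 0 of the 32 genes were called, without heterozygous sample 1-2 or 5-6 there were 4 calls, and with the Xist level as a covariate Lyz2 was the 1 gene called. Only Lyz2 and Ptprc kept their call whichever heterozygous sample was left out. At an unadjusted p under 0.05, 20 of the 32 genes passed in the fit on all samples, against 19.2% of all tested genes in either direction.

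**Figure D2:**
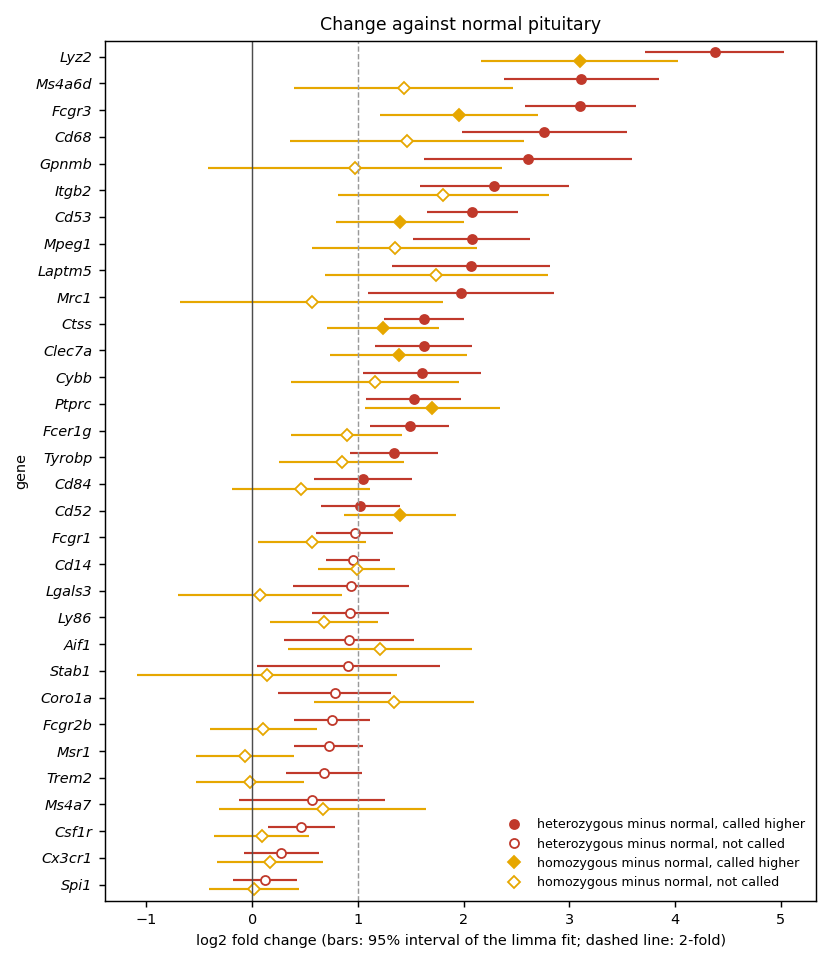
Log2 fold change against normal pituitary (x axis) of the 32 tested genes (rows), for heterozygous tumors (red circles, above) and the homozygous tumor (gold diamonds, below), with bars for the 95% interval of the limma fit. Filled symbols are the 18 and 7 calls, and the dashed line marks 2-fold.

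The class of lineage regulators and markers had the smallest median change of the role classes, by the brightest probe sets. None of the 4 (Aif1, Csf1r, Cx3cr1 and Spi1) was called by that probe set in either genotype. The median over them was 0.37 log2 units in heterozygous tumors and 0.13 in the homozygous tumor. A dimmer probe set of Csf1r, given below, was called in the homozygous tumor. Csf1r, the receptor for colony stimulating factor 1, was at 7.76, 8, 7.76 and 7.61 in the heterozygous samples, 7.41 in the homozygous sample, and 7.27 and 7.37 in the normal samples. Its log2 fold change in heterozygous tumors was 0.46 ± 0.13 (SE, adjusted p = 0.047, limma), short of 2-fold, although the groups did not overlap. Spi1 was at 6.11, 5.89, 6.12 and 5.88 in the heterozygous samples, 5.9 in the homozygous sample, and 5.8 and 5.95 in the normal samples, so that all groups overlapped. Its log2 fold change in heterozygous tumors was 0.12, with a 95% interval of -0.18 to 0.42. Cx3cr1, the fractalkine receptor of microglia and monocytes, averaged 7.58 ± 0.2 in heterozygous tumors (SD, n = 4) and 7.31 ± 0.07 in normal pituitary (SD, n = 2), a log2 fold change of 0.28 (adjusted p = 0.23). A dimmer probe set of Cx3cr1, 1450019_at, gave 0.63 in heterozygous tumors (adjusted p = 0.0477, limma) and 0.62 in the homozygous tumor. Aif1, which encodes the cytoskeletal protein Iba1, was lowest at 5.72 in heterozygous sample 1-2 and stood at 6.48 to 6.68 in the other 3, at 6.65 in the homozygous sample, and at 5.32 and 5.56 in the normal samples. The log2 fold change of Aif1 was 0.91 in heterozygous tumors (adjusted p = 0.0455) and 1.21 in the homozygous tumor (adjusted p = 0.148).

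Of 6 genes expressed by most white blood cells, 5 were called in heterozygous tumors and 3 in the homozygous tumor. Called or not, all 6 had a positive log2 fold change in each genotype. Cd53, a tetraspanin of leukocyte membranes, was at 8.13, 8.55, 8.37 and 7.92 in the heterozygous samples, 7.56 in the homozygous sample, and 6.09 and 6.24 in the normal samples. Every KO sample exceeded both normal samples by more than 1 log2 unit, and the log2 fold change was 2.08 ± 0.18 in heterozygous tumors (SE, adjusted p = 0.000584) and 1.4 ± 0.26 in the homozygous tumor (adjusted p = 0.0407). Ptprc, which encodes the phosphatase CD45, was at 7.32, 7.96, 7.72 and 7.42 in the heterozygous samples, 7.78 in the homozygous sample, and 5.98 and 6.18 in the normal samples. The homozygous sample lay within the heterozygous range here, and the log2 fold change was 1.53 ± 0.19 in heterozygous tumors (adjusted p = 0.00211) and 1.7 ± 0.27 in the homozygous tumor (adjusted p = 0.0283). Cd52, a short glycoprotein of lymphocytes and monocytes, was at 7.74, 7.76, 8.04 and 7.76 in the heterozygous samples, 8.2 in the homozygous sample, and 6.59 and 7.01 in the normal samples. The homozygous sample was above all heterozygous samples, and the log2 fold change was 1.02 ± 0.16 in heterozygous tumors (adjusted p = 0.00472) and 1.4 ± 0.23 in the homozygous tumor (adjusted p = 0.0283).

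Laptm5, a lysosomal membrane protein of hematopoietic cells, was called in heterozygous tumors at a log2 fold change of 2.07 (adjusted p = 0.0045) and stood 1.74 above normal in the homozygous tumor (adjusted p = 0.0976). Cd84, a receptor of the signaling lymphocytic activation molecule family, was just past 2-fold in heterozygous tumors at 1.05 (adjusted p = 0.00984) and was at 0.46 in the homozygous tumor. The heterozygous calls of both Cd84 and Cd52 were lost without normal sample 1, that of Cd84 also without heterozygous sample 1-2 or 3-4, and that of Cd52 also without sample 5-6. The Cd52 call was lost as well with quantile normalization repeated, and on arrays numbered 1 and 2 alone with the array number as a block. Coro1a, an actin-binding protein of leukocytes, was not called by its brightest probe set in either genotype, with log2 fold changes of 0.78 in heterozygous tumors (adjusted p = 0.0486) and 1.34 in the homozygous tumor (adjusted p = 0.0838). A second probe set of Coro1a was called in the homozygous tumor at 1.24 (adjusted p = 0.0381). Of the 32 tested genes, the homozygous sample exceeded all heterozygous samples for 2, Coro1a and Cd52, against 18.4% of all tested genes.

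Fc receptors, which bind the constant part of antibodies, and adaptors with immunoreceptor tyrosine-based activation motifs (ITAM) were classed with Clec7a and Trem2. These 7 genes gave 4 calls in heterozygous tumors and 2 in the homozygous tumor, with Clec7a among the calls in both. Fcgr3, a low-affinity activating receptor for immunoglobulin G, was at 8.14, 8.55, 8.21 and 7.86 in the heterozygous samples, 7.04 in the homozygous sample, and 4.8 and 5.37 in the normal samples. The 3 groups were separate, with the homozygous sample between the others, and the log2 fold change was 3.1 ± 0.22 in heterozygous tumors (SE, adjusted p = 0.000351) and 1.95 ± 0.32 in the homozygous tumor (adjusted p = 0.0295). Clec7a, the beta-glucan receptor dectin-1, was at 7.06, 7.12, 7.3 and 6.86 in the heterozygous samples, 6.85 in the homozygous sample, and 5.16 and 5.77 in the normal samples. Heterozygous sample 7-8 and the homozygous sample were level, and the log2 fold change was 1.62 ± 0.2 in heterozygous tumors (adjusted p = 0.00182) and 1.39 ± 0.28 in the homozygous tumor. The homozygous call had an adjusted p of 0.0498 and was lost in 9 of 17 alternatives, namely with no filter or a stricter filter on low values, with quantile normalization repeated, with the Xist level as a covariate, and when heterozygous sample 1-2, 3-4 or 5-6 or either normal sample was left out.

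The shared ITAM adaptors were called in heterozygous tumors. Fcer1g, the gamma chain of Fc receptors, averaged 7.66 ± 0.23 in heterozygous tumors (SD, n = 4) and 6.17 ± 0.02 in normal pituitary (SD, n = 2), a log2 fold change of 1.49 (adjusted p = 0.00114). Tyrobp, the adaptor DAP12, averaged 9.09 ± 0.26 in heterozygous tumors and 7.76 ± 0.12 in normal pituitary, a log2 fold change of 1.34 (adjusted p = 0.00252). In the homozygous tumor they stood 0.9 (Fcer1g, adjusted p = 0.0915) and 0.85 (Tyrobp, adjusted p = 0.137) above normal. Fcgr1, the high-affinity receptor for immunoglobulin G, fell just short of 2-fold in heterozygous tumors at 0.97 (adjusted p = 0.0052). Trem2, a lipid-sensing receptor that pairs with DAP12, was at 6.2 to 6.71 in the heterozygous samples, 5.81 in the homozygous sample, and 5.82 and 5.84 in the normal samples. The heterozygous samples were separate from all others, at a log2 fold change of 0.68 (adjusted p = 0.0204), and the homozygous sample did not exceed the normal ones (-0.02, 95% interval -0.53 to 0.49).

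Lysosomal and effector genes of phagocytes gave 6 calls of 7 genes in heterozygous tumors, the most of any class there, and 2 of 7 in the homozygous tumor. Lyz2, the lysozyme of myeloid cells, was at 11.83, 12.1, 11.71 and 11.04 in the heterozygous samples, 10.39 in the homozygous sample, and 7.12 and 7.48 in the normal samples. All KO samples were more than 2 log2 units above both normal samples, and the log2 fold change was 4.37 ± 0.28 in heterozygous tumors, a 20.7-fold difference (SE, adjusted p = 0.000281), and 3.1 ± 0.4 in the homozygous tumor, an 8.56-fold difference (adjusted p = 0.015). It was the largest change of the set in both genotypes. The neighboring gene Lyz1 is nearly identical in sequence, so that probe sets of the pair can share targets. A pair of _x_at probe sets annotated to Lyz1 gave log2 fold changes of 4.07 and 4 in heterozygous tumors, whereas a further Lyz1 probe set stayed between 3.31 and 3.88 in every sample.

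Cd68, a lysosomal glycoprotein, was at 8.83, 9.27, 8.7 and 7.98 in the heterozygous samples, 7.39 in the homozygous sample, and 5.67 and 6.2 in the normal samples. The groups were separate, and the log2 fold change was 2.76 ± 0.33 in heterozygous tumors (SE, adjusted p = 0.00181) and 1.46 ± 0.47 in the homozygous tumor (adjusted p = 0.164). Gpnmb, a transmembrane glycoprotein of lipid-laden macrophages that melanocytes also express, was at 9.04, 8.11, 8.55 and 7.3 in the heterozygous samples, 6.61 in the homozygous sample, and 5.66 and 5.62 in the normal samples. Its heterozygous samples covered 1.74 log2 units, the widest range of the set, and still cleared all others, with a log2 fold change of 2.61 ± 0.42 (adjusted p = 0.00537) and one of 0.97 ± 0.59 in the homozygous tumor (adjusted p = 0.445). Ctss, the protease cathepsin S, was at 10.82, 11.04, 10.96 and 10.58 in the heterozygous samples, 10.46 in the homozygous sample, and 9.09 and 9.36 in the normal samples. Here the homozygous sample stood close below the heterozygous ones, and the log2 fold change was 1.63 ± 0.16 in heterozygous tumors (adjusted p = 0.000853) and 1.24 ± 0.23 in the homozygous tumor (adjusted p = 0.0395).

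Mpeg1, a pore-forming protein of the phagosome, was at 9.04, 9.83, 9.21 and 8.99 in the heterozygous samples, 8.54 in the homozygous sample, and 7.24 and 7.14 in the normal samples. The KO samples all exceeded normal by more than 1 log2 unit, with a log2 fold change of 2.08 ± 0.24 in heterozygous tumors (adjusted p = 0.00145) and 1.35 ± 0.33 in the homozygous tumor (adjusted p = 0.0887). Cybb, the catalytic subunit of the phagocyte oxidase, was called in heterozygous tumors by each of its 3 probe sets, at log2 fold changes of 1.6, 1.51 and 1.25. Lgals3, which encodes the lectin galectin-3, was not called. It averaged 10.47 ± 0.36 in heterozygous tumors (SD, n = 4), stood at 9.61 in the homozygous tumor and averaged 9.54 ± 0.21 in normal pituitary (SD, n = 2), a log2 fold change of 0.94 in heterozygous tumors (adjusted p = 0.0283).

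Of the integrin subunits that form complement receptor 3, Itgb2, the beta 2 chain shared by leukocyte integrins, was at 7.72, 7.63, 7.35 and 6.59 in the heterozygous samples, 6.84 in the homozygous sample, and 5 and 5.06 in the normal samples. Heterozygous sample 7-8 was below the homozygous sample, and all exceeded normal by more than 1 log2 unit, with a log2 fold change of 2.29 ± 0.3 in heterozygous tumors (SE, adjusted p = 0.00242) and 1.81 ± 0.43 in the homozygous tumor (adjusted p = 0.0788). Itgam, the alpha M chain CD11b, did not pass the filter on low signal. Its values were 4.02 to 4.44 in the heterozygous samples, 3.99 in the homozygous sample, and 3.56 and 3.76 in the normal samples.

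Among endotoxin co-receptors and membrane-spanning 4A (MS4A) proteins, Ms4a6d alone was called. It was at 7.01, 8.06, 7.28 and 6.87 in the heterozygous samples, 5.62 in the homozygous sample, and 4.12 and 4.27 in the normal samples. The 3 groups were separate, and the log2 fold change was 3.11 ± 0.31 in heterozygous tumors, an 8.66-fold difference (SE, adjusted p = 0.000891), and 1.43 ± 0.44 in the homozygous tumor (adjusted p = 0.148). Cd14, the co-receptor that hands lipopolysaccharide to toll-like receptor 4, had the narrowest range of the set over the heterozygous samples, with 7.39 to 7.48 in the heterozygous samples, 7.46 in the homozygous sample, and 6.38 and 6.58 in the normal samples. Its log2 fold change was just under 2-fold in both genotypes, at 0.95 in heterozygous tumors (adjusted p = 0.00153) and 0.99 in the homozygous tumor (adjusted p = 0.0266). Ly86, the partner MD-1 of the receptor RP105, changed by 0.93 in heterozygous tumors (adjusted p = 0.00631) and by 0.68 in the homozygous tumor (adjusted p = 0.164). Ms4a7 was at 7.94 to 8.07 in 3 heterozygous samples and at 7 in sample 1-2, at 7.84 in the homozygous sample, and at 7.06 and 7.3 in the normal samples. Sample 1-2 thus lay below both normal samples, and the log2 fold change of 0.57 did not pass (adjusted p = 0.211).

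Scavenger and endocytic receptors, which in many tissues mark resident macrophages, included 3 of the 4 genes with the widest range over the heterozygous samples. Mrc1, the mannose receptor CD206, was at 7.61, 8.16, 7.23 and 6.61 in the heterozygous samples, 5.99 in the homozygous sample, and 5.33 and 5.53 in the normal samples. It was the one called gene of the class, at a log2 fold change of 1.97 ± 0.38 in heterozygous tumors (SE, adjusted p = 0.0104) and 0.56 ± 0.53 in the homozygous tumor (adjusted p = 0.636), and the heterozygous call was lost when either normal sample was left out. Stab1, the scavenger receptor stabilin-1, was at 6.39, 7.41, 6.15 and 5.96 in the heterozygous samples, 5.71 in the homozygous sample, and 5.62 and 5.51 in the normal samples. Sample 3-4 stood 1 log2 unit above the next, and the log2 fold change of 0.91 in heterozygous tumors did not pass (adjusted p = 0.121). Cd163, the receptor for hemoglobin and haptoglobin, was below the filter in every sample, at 4, 5.07, 4.7 and 3.7 in the heterozygous samples, 3.32 in the homozygous sample, and 3.34 and 3.37 in the normal samples. Sample 3-4 was again the highest, although signals this far below the median of 5.74 carry little weight. Lyve1, a hyaluronan receptor of lymphatic vessels and perivascular macrophages, was likewise not tested and lay between 4.15 and 4.58 in all samples. Msr1, the scavenger receptor A, was at 6.3 to 6.68 in the heterozygous samples, 5.77 in the homozygous sample, and 5.78 and 5.89 in the normal samples. By this brightest probe set, the log2 fold change of Msr1 was 0.72 in heterozygous tumors (adjusted p = 0.0108) and -0.07 in the homozygous tumor (95% interval -0.53 to 0.39).

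For 16 of the 35 genes the array holds several probe sets, and for 5 genes (Coro1a above, Fcgr2b, Msr1, Laptm5 and Csf1r) the tested ones disagreed on the call. The suffixes _s_at and _x_at mark probe sets whose probes can match more than one transcript. The brightest probe set of Fcgr2b, the inhibitory receptor for immunoglobulin G, gave a log2 fold change of 0.75 in heterozygous tumors (adjusted p = 0.0133), with normal samples at 8.01 and 8. Of the dimmer ones, 3 were called at 3.14, 2.36 and 2.21, and 1435477_s_at and 1455332_x_at were also called in the homozygous tumor, at 1.9 (adjusted p = 0.0235) and 1.23 (adjusted p = 0.0448). On 1435477_s_at the signal was 8.46, 8.92, 8.83 and 8.28 in the heterozygous samples, 7.39 in the homozygous sample, and 5.42 and 5.56 in the normal samples, so that the heterozygous and normal samples were more than 2 log2 units apart. For Msr1, a second probe set, 1448061_at, was called in heterozygous tumors at 2.42 (adjusted p = 0.00131). It read 5.38 in the homozygous sample, and 4.86 and 4.24 in the normal samples. On 1425434_a_at of Msr1 the homozygous sample was also above both normal samples, at 5.8 against 5.53 and 5.46.

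The disagreement ran the other way for Laptm5, whose call rests on 1436905_x_at alone, since its other tested probe sets gave 0.78, 0.37 and -0.17 in heterozygous tumors. For Csf1r, probe set 1419872_at gave 1.78 in the homozygous tumor (adjusted p = 0.0383), where the brightest gave 0.09. That probe set read 6.92, 7.82, 7.38 and 7.4 in the heterozygous samples, 8.4 in the homozygous sample, and 6.54 and 6.7 in the normal samples, which put the homozygous sample highest. Counting a gene as called when any of its tested probe sets was, 20 of the 32 genes were higher in heterozygous tumors, against 6.64% of the 12316 genes with a tested probe set, 10 were higher in the homozygous tumor, against 1.84%, and 0 were lower in either, against 5.03% and 1.61%.

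**Figure D3:**
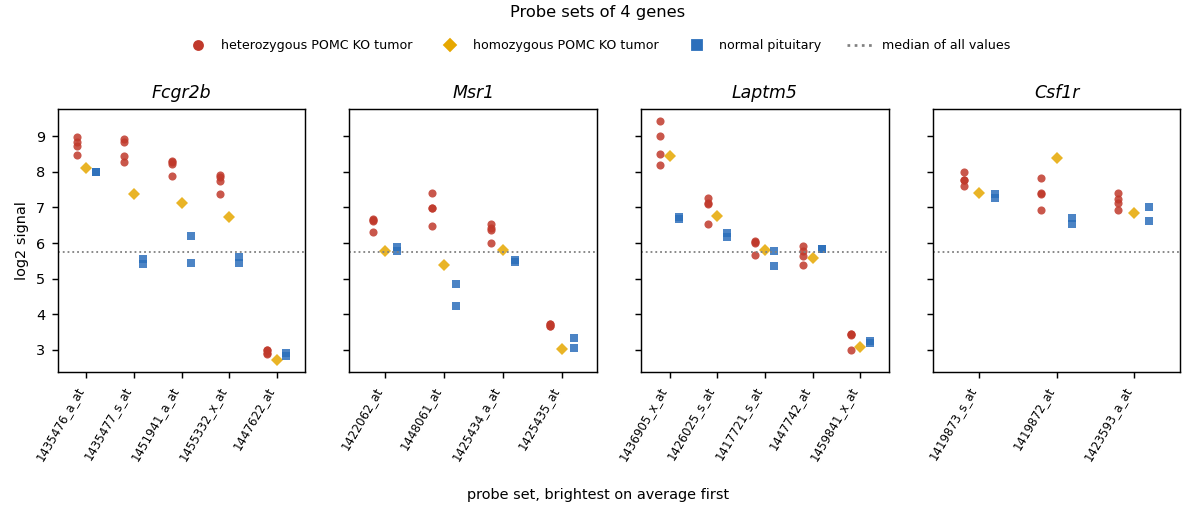
Log2 signal (y axis) of each single-gene probe set (x axis, brightest on average first) of Fcgr2b, Msr1, Laptm5 and Csf1r in the 7 samples, with red circles for heterozygous tumors, gold diamonds for the homozygous tumor and blue squares for normal pituitary. The normal samples of Fcgr2b stand near 8 on the brightest probe set and between 5.42 and 6.19 on the next 3.

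Set against each other, the homozygous sample was below all 4 heterozygous samples for 22 of the 32 genes, against 26.9% of all tested genes, and within their range for 8, against 54.7%. None of the differences was called in limma (0 of 32), where 0.228% of all tested genes were called higher in the homozygous sample and 0.0488% lower. At an unadjusted p under 0.05, 13 of the 32 genes passed, all lower in the homozygous sample, against 10.6% of all tested genes in either direction. The median log2 difference was -0.49, beside -0.031 over all tested genes. The largest were Ms4a6d at -1.68 (95% interval -2.63 to -0.74, adjusted p = 0.235), Gpnmb at -1.64 (-2.91 to -0.37, adjusted p = 0.397) and Mrc1 at -1.41 (-2.55 to -0.27, adjusted p = 0.42). With the 12 arrays counted as separate samples, 6 genes were called lower in homozygous tumors, namely Lyz2, Cd68, Mrc1, Fcgr3, Gpnmb and Ms4a6d. That setting counts near-identical arrays as replicates.

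Among the heterozygous samples, the median of the 32 genes above the mean of normal was 1.21, 1.67, 1.32 and 1.07 in samples 1-2, 3-4, 5-6 and 7-8, and 0.98 in the homozygous sample. Sample 3-4 was the highest of the 4 for 18 genes, against 20.2% of all tested genes, and sample 7-8 the lowest for 25, against 27.7%. The median range over the 4 samples was 0.631 for these genes and 0.364 for all tested genes. The order was not uniform. Sample 1-2 was highest for 4 genes (28% of all tested genes), among them Gpnmb and Itgb2, and lowest for 7 (29.3%), sample 5-6 was highest for 9 (23%), and sample 7-8 was highest for 1, Ms4a7 (28.9%). No test was made between these samples, because each is a single sample whose pairing was read from the values.

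**Figure D4:**
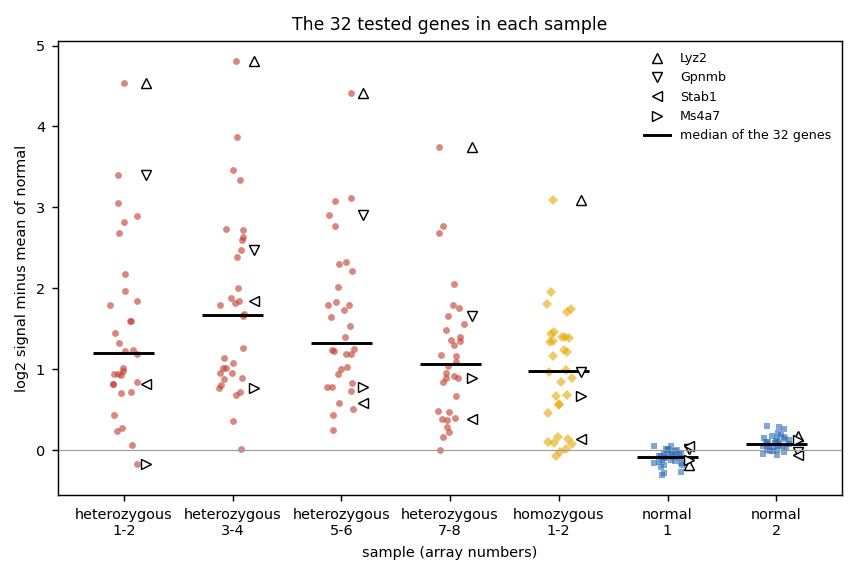
Log2 signal minus the mean of normal (y axis) for the 32 tested genes in each sample (x axis), with a bar at the median over genes and open triangles for Lyz2, Gpnmb, Stab1 and Ms4a7. The bars stand at 1.21, 1.67, 1.32 and 1.07 in the heterozygous samples and at 0.98 in the homozygous sample.

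A further list of 40 macrophage and microglia genes was examined beside the set. Of its 28 tested genes, 14 were called higher in heterozygous tumors and 0 lower, against 5.57% and 4.5% of all tested genes. In the homozygous tumor 1 was called higher, against 1.43%. That gene was Mmp12, the macrophage elastase, which was at 9.05, 8.52, 9.23 and 8.05 in the heterozygous samples, 7.43 in the homozygous sample, and 3.6 and 3.32 in the normal samples. Its log2 fold change was 5.25 ± 0.32 in heterozygous tumors (SE, adjusted p = 0.00026) and 3.97 ± 0.45 in the homozygous tumor (adjusted p = 0.0107), both larger than those of Lyz2. Both normal samples lay below the median signal for Mmp12 and above it for Lyz2. The next largest in heterozygous tumors were the phagosomal metal transporter Slc11a1 (1.78), the cytokine receptor chain Csf2rb (1.68), the complement components C1qb (1.59) and C1qc (1.57), and the transcription factor Irf8 (1.55). Some tested genes of the list averaged below normal in heterozygous tumors, and none of these was called. They were Ctsz (-0.996), Csf2ra (-0.74), Axl (-0.22), Tlr2 (-0.16), Irf5 (-0.06), and Tmem119 and Sall1, given next. Of genes that set microglia apart from other macrophages, P2ry12, P2ry13, Siglech and Gpr34 did not pass the filter, and Tmem119 was at -0.12 in heterozygous tumors (adjusted p = 0.609). Sall1, a transcription factor of microglia, was at 6.12, 7.25, 5.67 and 7.4 in the heterozygous samples, 6.03 in the homozygous sample, and 7.23 and 7.17 in the normal samples. Its heterozygous samples lay on both sides of normal, and it was not called in heterozygous tumors (-0.59, adjusted p = 0.411) or in the homozygous tumor (-1.17, adjusted p = 0.418).

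Of macrophage growth factors, Csf1 changed by 0.04 in heterozygous tumors (adjusted p = 0.884) and Il34 did not pass the filter. Tgfb1, a growth factor on which microglia depend, was called higher at 1.37 (adjusted p = 0.0139). Cx3cl1, the ligand of the receptor encoded by Cx3cr1, was called lower at -1.11 (adjusted p = 0.00257), with 8.07 to 8.48 in the heterozygous samples, 8.78 in the homozygous sample, and 9.3 and 9.54 in the normal samples.

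Markers of other white blood cells were followed beside these genes, as linear signal summed over a list and divided by the mean of normal. The 35 genes summed to 3.33, 4.07, 3.49 and 2.46 in the heterozygous samples, 2.05 in the homozygous sample, and 0.931 and 1.07 in the normal samples. The further list of macrophage and microglia genes summed to 1.39, 1.47, 1.21 and 1.15 in the heterozygous samples, 0.999 in the homozygous sample, and 0.938 and 1.06 in the normal samples, so that the homozygous sample did not stand above normal. The lysosomal protease gene Ctsb, which many cell types express, made up 37.9% to 45.3% of that sum. Markers of neutrophils and mast cells (14 genes on the array, of which 6 were tested) summed to 4.23, 2.9, 2.18 and 1.47 in the heterozygous samples, 4.08 in the homozygous sample, and 0.923 and 1.08 in the normal samples. Kit, a receptor of mast cells and of several other cell types, made up 42.7% to 51.1% of the sum in the heterozygous samples, 14.2% in the homozygous sample, and 23.2% and 22% in the normal samples. Without Kit the list summed to 2.85, 2.15, 1.38 and 0.983 in the heterozygous samples and 4.51 in the homozygous sample. Lyz2 made up 21.1% to 27% of the sum of the 35 genes in the heterozygous samples and 16.2% in the homozygous sample. Without Lyz2 those genes summed to 2.53, 3.11, 2.77 and 2.02 in the heterozygous samples and 1.78 in the homozygous sample. With Kit and Lyz2 left out, the neutrophil and mast cell list was the higher in heterozygous sample 1-2 and in the homozygous sample. The mast cell genes Cpa3, Mcpt4, Tpsb2 and Cma1 did not pass the filter, nor did the neutrophil genes Mpo, Elane, Csf3r and Cxcr2. S100a8, a calcium-binding protein abundant in neutrophils, was at 8.64, 7.04, 6.49 and 5.84 in the heterozygous samples, 9.52 in the homozygous sample, and 5.83 and 6.35 in the normal samples, and it was not called in either genotype. Ltf and Kit were called in heterozygous tumors, and Camp in the homozygous tumor.

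Markers of B and plasma cells summed to 1.05 to 1.28 in the heterozygous samples, 2.08 in the homozygous sample, and 0.989 and 1.01 in the normal samples. Jchain, the joining chain of immunoglobulins, was called in both genotypes, at 1.87 in heterozygous tumors (adjusted p = 0.00487) and 3.61 in the homozygous tumor (adjusted p = 0.011), and without it the list summed to 0.839 to 0.894 in the heterozygous samples and 0.958 in the homozygous sample. Markers of T and natural killer (NK) cells summed to 0.703 to 0.906 in the heterozygous samples, 0.811 in the homozygous sample, and 1.06 and 0.942 in the normal samples, with 5 of 15 genes tested and 1 call, Cd3d in the homozygous tumor at 1.17 (adjusted p = 0.0426). Thy1, which neurons and fibroblasts also express, made up 45.9% to 63% of this sum, and without it the list summed to 0.87 to 0.937 in the heterozygous samples, 1.14 in the homozygous sample, and 1.03 and 0.971 in the normal samples. The T and NK cell genes Cd3g (4.47), Cd8b1 (4.61) and Gzma (5.47) were higher in the homozygous sample than in any other, at signals below the filter. Among the genes called in the homozygous tumor, Cd52, Cd53 and Ptprc are also expressed by other white blood cells, and what such cells added to the values was not tested.

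**Figure D5:**
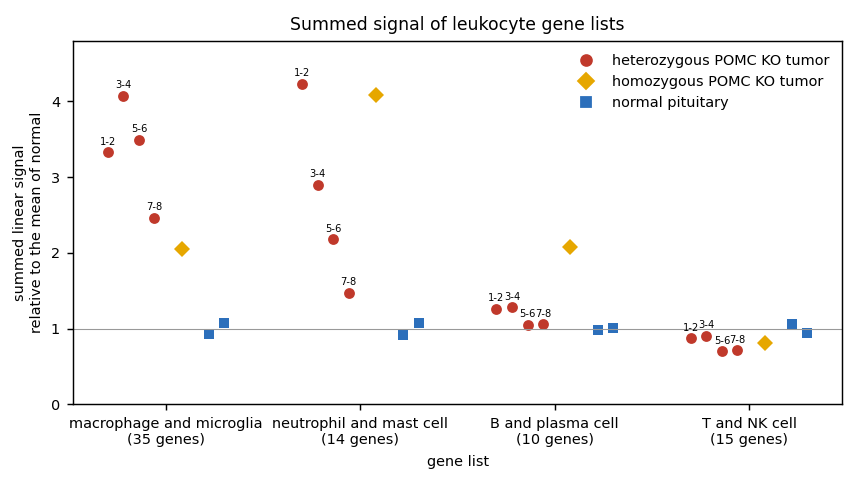
Summed linear signal of 4 gene lists (x axis) divided by the mean of the normal samples (y axis), with red circles for the heterozygous samples (array numbers above), gold diamonds for the homozygous sample and blue squares for the normal samples. The homozygous sample stands at 2.05 for macrophage and microglia genes and at 4.08 for neutrophil and mast cell markers.

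Promoters of the set, called or not, were searched for the purine-rich sequence bound by PU.1, the product of Spi1. RefSeq promoters (GRCm38.p6, from 250 bases before to 50 bases after a start) were at hand for 26 of the 35 genes, and Cd14, Cd52, Csf1r, Itgb2, Lyve1, Ms4a6d, Msr1, Spi1 and Tyrobp were not searched. The core GAGGAA, or its complement TTCCTC, was present in 16 of the 26 (61.5%), against 31.3% of 27025 genes with a promoter. The overlapping core AGGAAG, or CTTCCT, was present in 15 (57.7%), against 38.4%. The longer forms AGAGGAAG and GAGGAAGT, which contain these cores, were present in 4 (15.4%, against 5.22%) and 2 (7.69%, against 3.69%), and GGAA in all 26, against 96.5%. Every form was searched on both strands, and a match is a description of the sequence and not a bound site. Of the 14 genes called in heterozygous tumors that have a promoter, 10 held GAGGAA.

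Of the genes called in both genotypes, Cd53, Ctss and Fcgr3 held this core closest to a start, and their promoters are shown 5′ to 3′ on the gene's strand with each GAGGAA or TTCCTC in capitals. Cd53 lies at chr3:106790100-106790399 (minus strand), Ctss at chr3:95526536-95526835 (plus strand) and Fcgr3 at chr1:171059354-171059653 (minus strand).
Cd53: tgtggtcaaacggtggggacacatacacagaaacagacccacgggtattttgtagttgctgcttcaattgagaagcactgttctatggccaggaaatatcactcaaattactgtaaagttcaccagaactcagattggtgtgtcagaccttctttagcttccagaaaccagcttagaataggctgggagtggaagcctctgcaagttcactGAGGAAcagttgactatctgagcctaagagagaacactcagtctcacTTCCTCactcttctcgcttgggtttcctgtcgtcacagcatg
Ctss: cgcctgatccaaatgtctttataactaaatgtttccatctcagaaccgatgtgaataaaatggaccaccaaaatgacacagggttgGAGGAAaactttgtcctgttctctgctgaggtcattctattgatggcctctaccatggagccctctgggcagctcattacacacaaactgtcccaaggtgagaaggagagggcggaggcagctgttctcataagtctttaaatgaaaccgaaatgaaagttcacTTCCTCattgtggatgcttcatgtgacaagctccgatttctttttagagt
Fcgr3: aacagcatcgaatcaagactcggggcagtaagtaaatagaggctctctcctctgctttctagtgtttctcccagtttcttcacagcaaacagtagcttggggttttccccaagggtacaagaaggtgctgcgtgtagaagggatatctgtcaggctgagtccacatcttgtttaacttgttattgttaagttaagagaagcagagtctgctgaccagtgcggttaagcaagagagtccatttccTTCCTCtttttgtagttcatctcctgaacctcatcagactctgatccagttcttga
Counted from the start, with base 1 as the first transcribed base, the first base of the core lay at -39 and 9 in Cd53 and at -164 and 1 in Ctss. In Fcgr3 it lay at -6 from the start shown, and at -15 from another start of that gene.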

How the data were processed

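Pituitary RNA of 8 heterozygous POMC KO, 2 homozygous POMC KO and 2 normal mouse arrays was compared. The deposited values are log2 signals that the authors made with the Robust Multichip Average (RMA) algorithm. The submitters' processing notes name Affymetrix Expression Console for this step, whereas the methods name GeneSpring GX. RMA subtracts background, quantile-normalizes the arrays and summarizes the probes of a set, so that levels are relative and low signals are compressed, and the number of arrays limits the precision.

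Of 45037 probe sets beside 64 controls, 34945 named 1 gene in the platform annotation, 932 several and 9160 none. Arrays of a group with fewer than 10 probe sets over 2-fold apart were averaged as a pair. A probe set was tested where 2 or more arrays reached the overall median signal (5.74), which left 24486, and this was done with lmFit and eBayes in limma 3.58.1 (R 4.3.3) on the 7 samples, with 4 residual degrees of freedom and Benjamini-Hochberg adjustment. Intervals are 95% intervals of that fit. The methods compared 12 arrays by one-way analysis of variance, which was run as an alternative. Samples that carry the same array number in different groups did not deviate together (correlations 0.07, -0.02 and -0.003), so the numbers were not used as a block.

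The genes of the set and all lists were chosen with earlier results of these data known. Every gene of the set was to be named, with sample values for genes called in the homozygous tumor, the 8 largest called changes in heterozygous tumors, any gene called lower or between genotypes, and the 4 widest ranges over heterozygous samples. Of the further macrophage list, up to 6 called genes were to be named. Other genes given with sample values were chosen after their values were seen. The alternatives were other treatments of the pairs, filters, normalizations, an Xist covariate, the mean of all probe sets, an intensity trend and leaving out each sample, and 1, the samples with low Xist alone, was added after seeing the data. The test was tried on simulated data first.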

Additional observations from a re-analysis of the deposited data

Results flagged for a closer look

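In 4 of the 35 genes, 1 heterozygous sample stood apart from the other 3 by Dixon's criterion, which chance meets in about 1 in 20 groups. For Msr1, sample 7-8 read 6.301, against 6.615 to 6.679 in the others. For Cd52, sample 5-6 read 8.041, against 7.735 to 7.758. For Coro1a, sample 7-8 read 6.024, against 6.742 to 6.823. For Ms4a7, sample 1-2 read 7.004, against 7.943 to 8.067.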

How the results depend on the processing

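Over 19 alternatives, 15 to 23 of the set's tested genes were called higher in heterozygous tumors and 0 lower, with 32 tested except without the filter (35) and with probe sets averaged (27), and no gene reversed its direction after being called. Leaving out 1 sample gave 15 to 20, and centring on housekeeping genes, which moved the median of all genes to 0.0991, gave 23. With low-Xist samples alone, chosen after seeing the data, 20 were called. For the homozygous sample the count of 7 moved to 15 with 12 arrays as separate samples, 13 with the array pair as a random block, 14 by one-way analysis of variance, 1 with the Xist covariate, and 0 to 9 when 1 sample was left out. Counting near-identical arrays as samples narrows the estimated spread by construction, and the cause of the other shifts was not tested. Between genotypes the count of 0 moved to 6 with 12 arrays and by analysis of variance, 2 with the random block, and 0 to 1 when 1 sample was left out (Lyz2, without heterozygous sample 7-8). With the replicate block on arrays numbered 1 and 2, the counts were 18 in heterozygous tumors, 15 in homozygous tumors and 6 between genotypes. That setting keeps 1 near-identical pair of each KO genotype and counts its arrays as separate samples. The homozygous group is 1 sample and the normal group 2, and genes near the median signal are least precise.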

Other observations

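Further genes of the macrophage list that belong to no class above were also called in heterozygous tumors. C1qa, which completes complement component C1q with C1qb and C1qc, was at 9.42, 10.01, 9.38 and 9.2 in the heterozygous samples, 8.81 in the homozygous sample, and 7.81 and 8.12 in the normal samples. The heterozygous samples were all above the homozygous and both normal samples, at a log2 fold change of 1.54 ± 0.23 (SE, adjusted p = 0.00391, limma). Adgre1, which encodes an adhesion receptor widely used to mark mouse macrophages, was at 6.58 to 7.01 in the heterozygous samples, 6.52 in the homozygous sample, and 5.7 and 5.67 in the normal samples. Its log2 fold change was 1.08 ± 0.14 in heterozygous tumors (adjusted p = 0.00247) and 0.83 ± 0.2 in the homozygous tumor (adjusted p = 0.085).

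Among neutrophil genes, S100a9 and Ngp were highest in the homozygous sample, whereas Ltf was not. Ltf was at 6.58 there, below heterozygous samples 1-2, 3-4 and 5-6 (7.22, 8.57 and 7.31). Mpo, Elane, Csf3r and Cxcr2 did not pass the filter, with log2 fold changes of 0.46, 0.03, -0.01 and -0.03 in the homozygous tumor. For S100a9 and Ngp both normal samples lay below the median signal. S100a9, the partner of S100a8, was at 7.67, 6.15, 5.81 and 5.67 in the heterozygous samples, 8.68 in the homozygous sample, and 4.71 and 5.71 in the normal samples. Ngp, a granule protein, was at 6.53, 4.93, 4.47 and 4.79 in the heterozygous samples, 7.64 in the homozygous sample, and 5.22 and 5.06 in the normal samples. Heterozygous sample 1-2 was next highest for both, and neither gene was called in the homozygous tumor (adjusted p = 0.0744 for S100a9 and 0.133 for Ngp). Camp, a granule peptide, was called there, at 1.73 ± 0.33 (adjusted p = 0.044).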
